A study of Mus musculus with 6 samples.

Results

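The genes described here carry a cell from G1 into S phase and copy its DNA. They are the rows of the deposited count table whose gene name is on a list of 46 genes of S-phase entry and DNA replication, and 44 of the 46 had a row; Cdt1 and Gins2 were not analysed here. The table has 56792 gene rows in all. RNA sequencing was done on C2C12 cells, an established mouse myoblast line labelled wild type, which leaves the cell cycle and fuses into myotubes when serum is lowered. All libraries came from cells kept for 4 days in medium with 2% horse serum to differentiate, 3 without further treatment (untreated) and 3 with 1 µM lenvatinib, an inhibitor of receptor tyrosine kinases for vascular endothelial and fibroblast growth factors. The comparison asks how transcripts of this group differed between treated and untreated differentiating cells. C2C12 is a single line, and nothing in the labels shows that the libraries came from separate cultures. The p-values therefore measure only the spread among these 6 libraries, and that spread may be technical. A solvent for the untreated cells and the start of dosing are not stated.

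As background, DNA replication is prepared in G1, when the origin recognition complex, Cdc6 and Cdt1 load the ring of Mcm2 to Mcm7 onto origins. Cyclin E with its kinase then drives entry into S phase, Cdc45 and the GINS proteins turn the ring into an active helicase, and polymerases with their sliding clamp copy both strands. Many of these genes are transcribed under E2F factors, which the retinoblastoma family holds back in cells that stop dividing, as myoblasts do when they become myotubes.

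Library totals ranged from 24566768 to 32406563 counts, and the members together took 0.12 to 0.128% of the counts in the untreated and 0.14 to 0.144% in the lenvatinib libraries. Levels are given in CPM (counts per 1000000 of the TMM-scaled library total), each mean with its SD over n = 3 libraries. A value such as 0.92 ± 0.10 beside a fold is the log2 fold change, treated over untreated, with its SE. Adjusted p-values come from edgeR's quasi-likelihood test with Benjamini-Hochberg adjustment over all 14989 tested rows, and a row with one under 0.05 is called higher or lower. The transcripts were those of differentiating muscle in both groups. The embryonic myosin gene Myh3 was at 5968 ± 138 CPM untreated and 6381 ± 71.7 CPM with lenvatinib. Myog, the transcription factor gene of terminal differentiation, was at 855 ± 10.2 CPM untreated and 1035 ± 14.1 CPM with lenvatinib. Myh3 and Myog were both called higher, and of the 9 muscle genes given further below 5 were higher and 3 lower.

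Replication genes were mostly higher with lenvatinib, by small amounts. All 44 rows had enough counts for the test, and 30 rose, 1 fell and 13 did not pass. Of all tested rows 28.2% were called, 13.3% higher and 14.9% lower, and of the members 68.2% were called higher. The median log2 fold change of the members was 0.27, against 0.00 over all tested rows, and the rises ran from 1.15-fold in Rrm1 to 1.90-fold in Ccne2 with a median of 1.21-fold. In 32 members every lenvatinib library lay above every untreated one and in 1, E2f2, below; the same held for 19.6% and 20.5% of all tested rows. Summed over the 44 genes, the level was 1277, 1209.7 and 1201 CPM in the untreated libraries and 1428, 1403 and 1415 CPM with lenvatinib. The first untreated library was the highest of its group, and no lenvatinib library reached down to it. In bulk RNA, more cells in S phase and more of these transcripts per cell cannot be told apart.

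**Figure D1:**
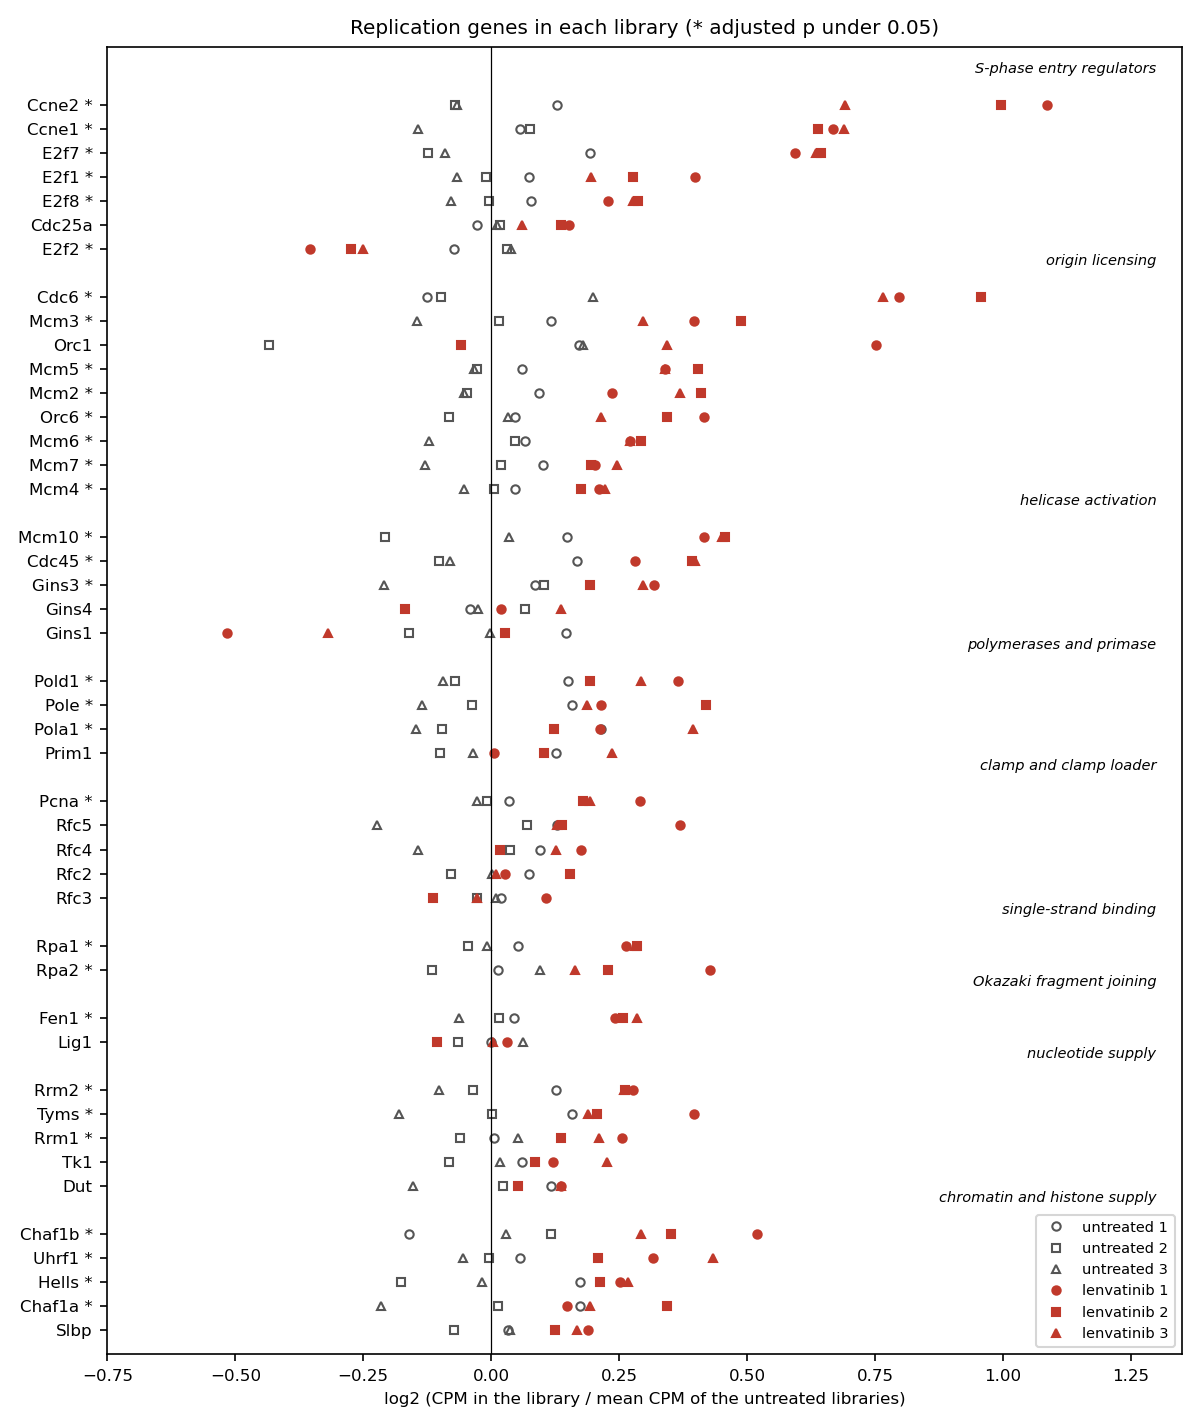
Level of each member in each library as log2 of its CPM over the mean of the untreated libraries, grouped by role; open grey symbols are untreated and filled red symbols lenvatinib libraries, and an asterisk marks an adjusted p under 0.05. Red symbols lie to the right of the grey ones for 32 of the 44 members, farthest for Ccne2, Cdc6, Ccne1 and E2f7, and to the left for E2f2.

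Promoters were searched for E2F-type words, since many members are textbook E2F targets. A higher share among members than among all genes is therefore built into the choice of the list. RefSeq promoter windows (GRCm38.p6, 250 bases before to 50 after a transcript start) were found for 39 of the 46 listed genes, and the 8-base words TTTCCCGC, TTTGGCGC, TTTCGCGC and TTTGCCGC were matched exactly on both strands, overlapping matches included. Such a word was present for 17 of the 39 genes (43.6%), for 704 of all 27025 genes with a window (2.6%) and for 472 of 10152 tested genes with a window (4.65%). Among members with a window it was found for 11 of 27 that rose, for E2f2, which fell, for 4 of 10 that did not pass, and for Cdt1, whose level was not analysed here. The shares among members that rose and members that did not pass were thus similar. Whether the word goes with the rise was not tested. The 6-base word TTTGAA of mitotic promoters was found for 6 of the 39 (15.4%), for 1483 of the 10152 tested genes (14.6%) and for 20.2% of all genes. A match describes letters in a window, and binding was not measured. The 250 bases upstream of the start are shown, with the words in capitals, for Cdc6 (chr11:98907901-98908150, plus strand) and E2f7 (chr10:110745189-110745438, plus strand), which are among the steepest rises, and for Mcm5 (chr8:75109259-75109508, plus strand) and Mcm6 (chr1:128359706-128359955, minus strand), which hold overlapping words on both strands.
Cdc6: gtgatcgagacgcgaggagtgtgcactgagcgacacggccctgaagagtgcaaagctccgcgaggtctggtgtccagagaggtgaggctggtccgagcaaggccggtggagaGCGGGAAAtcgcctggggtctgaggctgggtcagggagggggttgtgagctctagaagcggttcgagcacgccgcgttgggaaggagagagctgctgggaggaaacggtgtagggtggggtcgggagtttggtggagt
E2f7: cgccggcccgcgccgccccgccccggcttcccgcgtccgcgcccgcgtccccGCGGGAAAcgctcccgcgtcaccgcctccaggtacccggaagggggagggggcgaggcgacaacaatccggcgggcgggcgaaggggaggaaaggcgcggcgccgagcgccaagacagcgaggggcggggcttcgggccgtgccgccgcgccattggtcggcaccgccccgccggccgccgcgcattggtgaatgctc
Mcm5: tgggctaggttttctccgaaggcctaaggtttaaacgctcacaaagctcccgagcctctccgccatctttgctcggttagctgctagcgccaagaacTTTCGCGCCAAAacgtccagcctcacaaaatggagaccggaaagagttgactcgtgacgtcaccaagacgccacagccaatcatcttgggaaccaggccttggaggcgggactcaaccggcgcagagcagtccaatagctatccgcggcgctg
Mcm6: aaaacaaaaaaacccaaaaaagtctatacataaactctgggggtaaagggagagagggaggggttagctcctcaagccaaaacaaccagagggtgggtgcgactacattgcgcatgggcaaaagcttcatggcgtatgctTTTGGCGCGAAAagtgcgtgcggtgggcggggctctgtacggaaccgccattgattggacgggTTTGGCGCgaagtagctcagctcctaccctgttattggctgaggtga
In Mcm3 and E2f2 the words lie after the transcript start, and 30 bases around them are given because one gene rose and the other fell. That of Mcm3 is chr1:20820267-20820296, minus strand, and that of E2f2 is chr4:136172294-136172323, plus strand.
Mcm3: gtgGCGGGAAAacttgggaagtTTTGGCGC
E2f2: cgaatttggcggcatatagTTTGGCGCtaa
The E2f2 stretch and the Mcm3 stretch share the word TTTGGCGC. E2f2 is the only member that fell, and it had 2 windows, of which only window 1 holds the word. Ccne1 and Ccne2 were among the 4 steepest rises; the window of Ccne1 holds none of the 4 words and Ccne2 had no window.

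**Figure D2:**
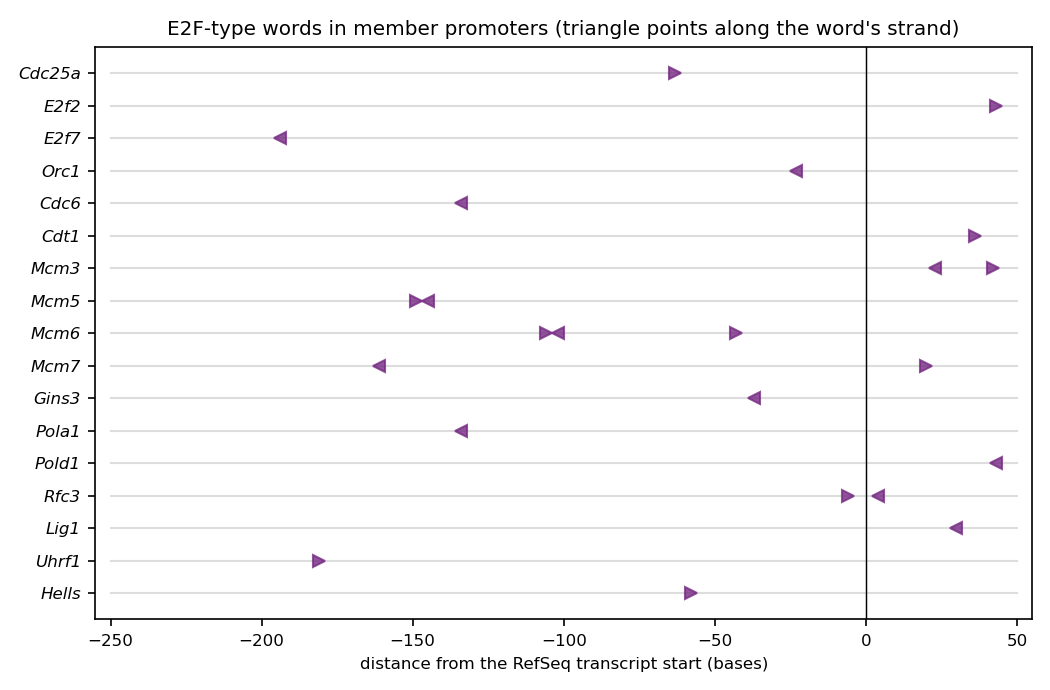
Positions of the E2F-type words in the promoter windows of the 17 listed genes that hold one, in bases from the RefSeq transcript start; triangles point right for a match on the gene's strand and left for the other strand. Mcm5 and Mcm6 hold overlapping matches on opposite strands. All matches of E2f2, Cdt1, Mcm3, Pold1 and Lig1 lie after the start. Mcm7 and Rfc3 hold matches before it and also a match that begins at 16 (Mcm7) or at 0 (Rfc3).

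Regulators of S-phase entry held 3 of the 4 rises of at least 1.5-fold and the only fall. Of these 7 genes 5 rose, 1 fell and 1 did not pass. Ccne2, a gene for the E-type cyclins that activate Cdk2 (deposited position chromosome 4, 11191351 to 11204779), was at 6.88, 5.99 and 6.01 CPM in the untreated libraries and 13.4, 12.6 and 10.2 CPM in the lenvatinib libraries. The 3 lenvatinib values lie above all untreated ones, with the third lenvatinib library the lowest of its group, and the mean rose 1.90-fold (0.92 ± 0.10, adjusted p = 3.1e-09). Its row overlaps that of Ints8 on the opposite strand, which was at a mean of 66.9 CPM with a log2 fold change of 0.01. Ccne1, the other E-type cyclin gene (chromosome 7, 37797409 to 37806959), was at 8.30, 8.42 and 7.23 CPM in the untreated libraries and 12.7, 12.4 and 12.9 CPM in the lenvatinib libraries. These values are tight within each group and far apart between groups, a 1.59-fold rise (0.67 ± 0.09, adjusted p = 1.07e-07). Cdc25a, whose phosphatase removes inhibitory phosphates from Cdk2, was at 15.5 ± 0.262 and 16.8 ± 0.561 CPM and did not pass (adjusted p = 0.251), and its lenvatinib libraries lay above the untreated ones.

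The E2F factors did not move as one. E2f2, an activating E2F, was the most abundant of the 4 E2F genes among the members per length (20.4 CPM per kilobase untreated against 8.76 for E2f8, 6.31 for E2f1 and 1.12 for E2f7). Its level (deposited position chromosome 4, 135899705 to 135923368) was 116, 125 and 125 CPM in the untreated libraries and 95.4, 101 and 103 CPM in the lenvatinib libraries. The groups do not overlap, and E2f2 fell by 0.29 ± 0.04 on the log2 scale (adjusted p = 1.4e-08), 1.22-fold. E2f1, the founding activating member, was at 20.97, 19.8 and 19.00 CPM in the untreated libraries and 26.2, 24.1 and 22.8 CPM in the lenvatinib libraries. It rose 1.22-fold (0.29 ± 0.07, adjusted p = 0.000556), so the ratio of E2f2 to E2f1 per length went from 3.23 to 2.15. E2f7, an atypical E2F that represses E2F targets, was at 11.8, 9.52 and 9.73 CPM in the untreated libraries and 15.6, 16.2 and 16.1 CPM in the lenvatinib libraries, a 1.54-fold rise (adjusted p = 1.06e-07). Its partner E2f8 was at 52.9, 50.01 and 47.5 CPM in the untreated libraries and 58.8, 61.2 and 60.8 CPM in the lenvatinib libraries, higher in every lenvatinib library (1.20-fold, adjusted p = 5.22e-06). Without E2f2, the summed level of the other 43 members was 1.19 times the untreated level, against 1.15 times with it.

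**Figure D3:**
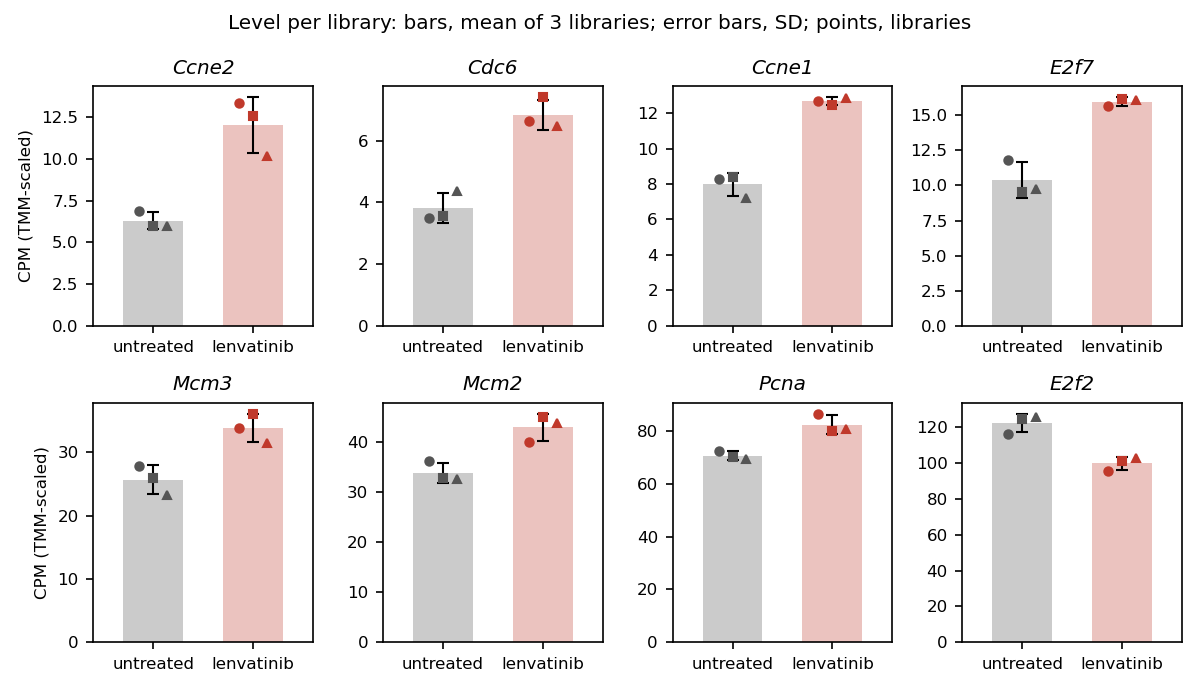
Level in CPM of 8 members in each library (points), with the mean of 3 libraries (bars from 0) and SD (error bars); untreated in grey and lenvatinib in red. In 7 panels the lenvatinib points lie above the untreated ones, and in the panel of E2f2 they lie below, at 95.4 to 103 CPM against 116 to 125 CPM.

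Of the licensing genes on the member list 8 of 9 were called higher and none lower, with a median log2 fold change of 0.34. Cdc6, the loader of the Mcm ring whose promoter is shown above (chromosome 11, 98798627 to 98814766 in the deposited table), was at 3.49, 3.56 and 4.38 CPM in the untreated libraries and 6.62, 7.40 and 6.48 CPM in the lenvatinib libraries. All treated values exceed all untreated ones, from a low level of 91 to 210 counts per library, and the rise was 1.78-fold (0.83 ± 0.13, adjusted p = 1.14e-06). All of Mcm2 to Mcm7, the subunits of the ring, rose, by 1.15-fold to 1.31-fold. Mcm3 had the largest of these rises, from 27.9, 25.96 and 23.2 CPM untreated to 33.8, 36.1 and 31.6 CPM (0.39 ± 0.06, adjusted p = 6.12e-06). For Mcm5, with its overlapping promoter words, the values were 22.3, 20.99 and 20.9 CPM untreated and 27.1, 28.3 and 27.1 CPM treated (1.28-fold, adjusted p = 5.83e-06). The libraries gave 36.1, 32.8 and 32.7 CPM untreated and 39.9, 45.01 and 43.7 CPM treated for Mcm2, a 1.27-fold rise (adjusted p = 2.12e-06). None of these 3 subunits had a treated value within the untreated range.

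The other subunits had smaller fold values. Mcm6 went from 44.8, 44.2 and 39.4 to 51.6, 52.4 and 51.7 CPM (1.21-fold, adjusted p = 9.7e-06), with treated libraries within 1 CPM of each other. Mcm7 went from 42.2, 39.8 and 35.9 to 45.3, 45.01 and 46.6 CPM (1.16-fold, adjusted p = 0.000880), and the opposite-strand rows Cops6 and Ap4m1 that overlap it were at 104 and 19.997 CPM with log2 fold changes of 0.00 and -0.19. Mcm4 went from 35.9, 34.9 and 33.5 to 40.2, 39.2 and 40.5 CPM (1.15-fold, adjusted p = 0.00138), the smallest rise of the ring. Per length the 6 subunits lay between 4.74 (Mcm2) and 9.68 (Mcm4) CPM per kilobase untreated, and every treated library exceeded every untreated one for each. Orc6, a subunit of the origin recognition complex, was at 22.7, 20.7 and 22.4 CPM in the untreated libraries and 29.3, 27.8 and 25.5 CPM in the lenvatinib libraries, without overlap (1.25-fold, adjusted p = 7.77e-05). Its row shares bases with that of Vps35 on the opposite strand, at 331 CPM, which fell by 0.09. Orc1, the largest subunit of that complex, was the least abundant member per length, with 29 to 64 counts per library. Its 1.53 ± 0.345 and 2.000 ± 0.558 CPM did not pass (adjusted p = 0.233, 95% interval of the log2 fold change -0.08 to 0.83). Orc2 to Orc5, further subunits, are not on the member list. Orc2 was called higher (log2 fold change 0.16, adjusted p = 0.00969). Orc3 (0.10, adjusted p = 0.104), Orc4 (0.06, adjusted p = 0.342) and Orc5 (0.04, adjusted p = 0.830) did not pass.

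Genes that turn the loaded ring into a helicase were divided, with 3 of 5 higher and 2 not called. Mcm10, a factor for starting the helicase, was at 4.36, 3.41 and 4.03 CPM in the untreated libraries and 5.25, 5.40 and 5.37 CPM in the lenvatinib libraries, a rise of 1.36-fold (0.44 ± 0.13, adjusted p = 0.00882), but without the second untreated library its adjusted p was 0.0681. Cdc45, a core subunit of the helicase, rose from 9.84 ± 1.05 to 12.6 ± 0.574 CPM (1.28-fold, adjusted p = 0.00146), beside Ufd1 on the opposite strand (69.5 CPM, log2 fold change 0.09). Of the GINS complex that completes the helicase 1 of 3 subunits passed. Gins3 rose from 7.51 ± 0.879 to 9.06 ± 0.417 CPM (adjusted p = 0.0384); its adjusted p was 0.260 without the third untreated library, 0.106 and 0.102 without the first or the third lenvatinib library, and 0.117 with DESeq2. Gins4, the subunit with the highest level per length, was at 20.3 ± 0.831 and 20.3 ± 2.14 CPM (adjusted p = 0.948, 95% interval -0.13 to 0.15). Gins1 was at 2.89 ± 0.305 and 2.43 ± 0.472 CPM, lower in mean but overlapping (adjusted p = 0.301, 95% interval -0.61 to 0.10).

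The 3 polymerase genes rose, and each of these calls rested on individual libraries. Pold1, the catalytic subunit of polymerase delta, rose from 10.2 ± 0.971 to 12.4 ± 0.737 CPM (1.22-fold, adjusted p = 0.0112). Pole, that of polymerase epsilon, rose from 9.57 ± 0.9998 to 11.6 ± 1.04 CPM (1.21-fold, adjusted p = 0.0225), and Pola1, that of the priming polymerase alpha, from 14.1 ± 1.98 to 16.8 ± 1.62 CPM (1.19-fold, adjusted p = 0.0315), with overlapping groups. Without the second or the third untreated library the adjusted p was 0.0572 and 0.0726 for Pold1, 0.0721 and 0.144 for Pole and 0.139 and 0.169 for Pola1. It was also 0.0610 for Pold1 without the first, 0.160 for Pole without the second and 0.212 for Pola1 without the third lenvatinib library. With DESeq2, Pole and Pola1 had adjusted p-values of 0.0758 and 0.0762. Prim1, the primase that starts each new strand, was at 10.5 ± 0.863 and 11.4 ± 0.922 CPM and did not pass (adjusted p = 0.330, 95% interval -0.06 to 0.30).

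The sliding clamp gene was called higher while no gene of its main loader was, and this difference was not tested. Pcna, the clamp that tethers polymerases to DNA and the second most abundant member per length (29.4 CPM per kilobase), was at 72.3, 70.2 and 69.2 CPM in the untreated libraries and 86.4, 79.97 and 80.7 CPM in the lenvatinib libraries. The treated values all lie above the untreated ones, by a modest 1.17-fold (0.22 ± 0.04, adjusted p = 1.2e-05). A row for the pseudogene Pcna-ps2, between which and Pcna reads may be split, held 19.5 CPM untreated and 22.1 CPM with lenvatinib (log2 fold change 0.18, adjusted p = 0.0461). None of the 5 subunits of replication factor C, which loads the clamp, was called. Rfc1, its large subunit, is not on the member list and was at 57.5 ± 2.76 and 57.9 ± 1.99 CPM (adjusted p = 0.907). Genes of related loader complexes, also not members and named after their values were seen, were called higher. They were Dscc1 (log2 fold change 0.83, adjusted p = 0.00155), Chtf18 (0.36, adjusted p = 0.0141) and Atad5 (0.31, adjusted p = 0.0211). Chtf8, with at most 11 counts in a library, was not tested. Of the 4 members Rfc2 to Rfc5, Rfc5 had the smallest p, at 10.1 ± 1.28 and 11.7 ± 1.13 CPM (adjusted p = 0.0874), and its adjusted p was 0.0408 without the first untreated library. Rfc2 was at 25.1 ± 1.32 and 26.3 ± 1.44 CPM, Rfc3 at 13.5 ± 0.233 and 13.4 ± 1.04 CPM and Rfc4 at 6.79 ± 0.573 and 7.32 ± 0.409 CPM, all overlapping between groups. The 95% intervals of Rfc2, Rfc3, Rfc4 and Rfc5 were -0.06 to 0.18, -0.17 to 0.15, -0.11 to 0.33 and 0.02 to 0.41 on the log2 scale, and the last 2 include the Pcna value. Without a known strand setting, reads of Rfc4 and Rfc5 cannot be told apart from those of the abundant opposite-strand neighbours Eif4a2 (396 CPM) and Wsb2 (255 CPM) where the rows overlap.

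Of the single-strand binding protein RPA, the genes of the large and middle subunits rose. That of the small subunit, Rpa3, which is not on the member list, was at 9.58 ± 0.452 and 10.6 ± 0.331 CPM and did not pass (adjusted p = 0.230). Rpa1, its large subunit, was at 74.9, 69.98 and 71.8 CPM in the untreated libraries and 86.7, 88.02 and 87.8 CPM in the lenvatinib libraries, the third smallest p of the members (1.21-fold, 0.28 ± 0.04, adjusted p = 7.68e-08). Rpa2, the middle subunit, rose from 17.3 ± 1.26 to 20.99 ± 2.05 CPM (1.21-fold, adjusted p = 0.00363), with an adjusted p of 0.0621 without the first lenvatinib library. Of the pair that finishes Okazaki fragments, the flap nuclease gene Fen1 rose from 20.2, 19.8 and 18.7 CPM to 23.1, 23.4 and 23.8 CPM (1.20-fold, adjusted p = 0.000973). Its treated libraries all exceed the untreated ones. Lig1, the ligase that seals the fragments, was at 25.7 ± 1.13 and 25.3 ± 1.25 CPM (adjusted p = 0.828), with a 95% interval of -0.14 to 0.10 for the log2 fold change; that of Fen1 was 0.26 ± 0.06, and the difference between them was not tested. Both rows overlap opposite-strand rows, Tmem258 at 46.3 CPM and Zswim9 at 10.97 CPM, neither of them called.

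Of the 5 genes that supply nucleotides 3 rose. The ribonucleotide reductase subunits, which make deoxyribonucleotides, were the members with the most counts. Rrm2, the subunit tied to S phase and the most abundant member per length at 46.2 CPM per kilobase, was at 139.9, 125 and 119 CPM in the untreated libraries and 155, 154 and 153 CPM in the lenvatinib libraries. Its treated libraries differed by under 2 CPM while the untreated ones spread from 119 to 140 CPM, and the groups stayed apart (1.20-fold, 0.27 ± 0.05, adjusted p = 0.000337). Rrm1, the large subunit, was at 170.5, 163 and 176 CPM in the untreated libraries and 203, 187 and 197 CPM in the lenvatinib libraries, also without overlap (1.15-fold, adjusted p = 5.97e-06). Tyms, thymidylate synthase, rose from 14.2 ± 1.66 to 17.1 ± 1.39 CPM (adjusted p = 0.0111), a call lost without the third untreated (adjusted p = 0.125) or the first lenvatinib library (adjusted p = 0.0942). Tk1, thymidine kinase, was at 16.3 ± 0.817 and 18.1 ± 0.926 CPM (adjusted p = 0.115), and Dut, which removes dUTP, at 14.9 ± 1.39 and 16.1 ± 0.538 CPM (adjusted p = 0.297).

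Of the genes that rebuild chromatin behind the fork 4 of 5 rose. Uhrf1, which guides DNA methylation to newly copied strands, was at 22.2, 21.3 and 20.5 CPM in the untreated libraries and 26.6, 24.7 and 28.8 CPM in the lenvatinib libraries. All treated values are higher, that of the third library most (1.26-fold, 0.33 ± 0.06, adjusted p = 6.87e-05). Chaf1b, a subunit of the histone chaperone that follows the clamp, rose from 7.18 ± 0.695 to 9.42 ± 0.781 CPM (1.31-fold, adjusted p = 0.00316). Its partner Chaf1a rose from 20.3 ± 2.71 to 23.8 ± 1.70 CPM with overlapping groups (adjusted p = 0.0345, beside opposite-strand Ubxn6 at 56.9 CPM), and the remodeler gene Hells from 12.03 ± 1.46 to 14.3 ± 0.278 CPM (adjusted p = 0.0243). These last calls were lost in the most refits, 5 of 14 each, though the largest adjusted p-values of Gins3 (0.260) and Pola1 (0.212) were higher. Chaf1a had adjusted p-values of 0.0898 and 0.205 without the second or the third untreated library and 0.142 and 0.0649 without the second or the third lenvatinib library. Hells had 0.186 and 0.0699 without those untreated libraries and 0.0550 and 0.0754 without the first or the third lenvatinib library. With DESeq2 their adjusted p-values were 0.0561 and 0.0807. Slbp, which binds the stem-loop of histone mRNAs, was at 17.99 ± 0.761 and 20.1 ± 0.451 CPM and did not pass (adjusted p = 0.0641).

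Low and abundant members both rose. Across the 44 members, the log2 fold change and the untreated level per kilobase had a Spearman correlation of -0.33, given as a description, since the points share libraries and a noisy low gene can lie far from 0 in either direction. The 4 members with rises of at least 1.5-fold, Ccne2, Cdc6, Ccne1 and E2f7, lay at 1.55, 0.718, 2.96 and 1.12 CPM per kilobase. Rrm2 and Pcna, the most abundant, rose 1.20-fold and 1.17-fold, and E2f2, the third, fell. Feature lengths are those of the deposited table.

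**Figure D4:**
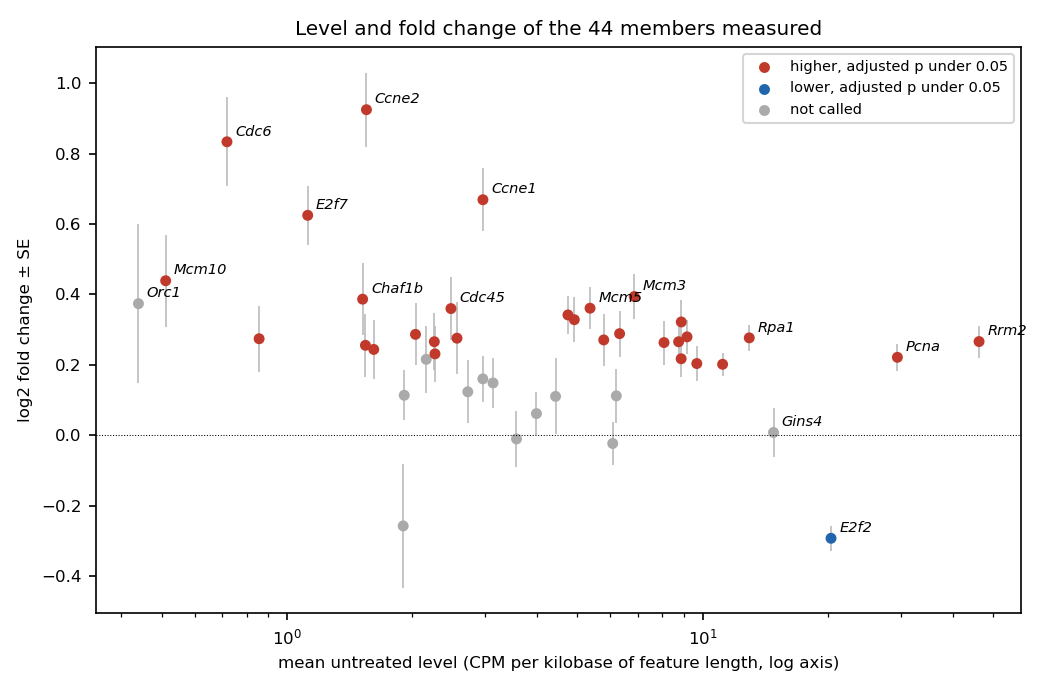
Log2 fold change with SE (vertical axis) against the mean untreated level per kilobase of feature length (horizontal log axis) for the 44 members measured; red marks members called higher, blue lower and grey not called. The 4 steepest rises lie below 3 CPM per kilobase, and the 3 most abundant members are Rrm2, Pcna and E2f2.

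Of 57 other replication genes tested, 24 were higher (42.1%, against 13.3% of all tested rows), 1 lower and 32 not called, with a median log2 fold change of 0.19. Dck, a kinase that salvages deoxynucleosides, rose from 12.6 ± 0.965 to 18.3 ± 1.04 CPM (adjusted p = 3.39e-07), and Tcf19, a gene expressed at the start of S phase, from 11.3 ± 0.242 to 15.9 ± 0.810 CPM (adjusted p = 3.48e-06). Clspn, the adaptor of the replication checkpoint, rose 1.45-fold (adjusted p = 4.82e-06), and Dtl, a substrate receptor that directs Cdt1 to degradation, 1.44-fold (adjusted p = 5.53e-06). The single fall was in Pold4, the smallest subunit of polymerase delta, from 21.1 ± 1.27 to 16.3 ± 0.5004 CPM (adjusted p = 2.46e-05), against the rise of Pold1; it is named after its value was seen.

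Mitosis genes, which act after the DNA has been copied, were called higher in 9 of 44 tested and lower in 2, with a median of 0.11. These are 20.5% higher and 4.55% lower, against 13.3% and 14.9% of all tested rows. Ccna2, a cyclin gene also on this list, had at most 1 count in any library and was not tested. Why its row was nearly empty was not examined. Smc2, a condensin subunit, rose from 35.5 ± 2.98 to 43.2 ± 1.58 CPM (adjusted p = 6.26e-05), Spc25, a kinetochore protein, by 0.40 on the log2 scale (adjusted p = 8.31e-05), the phosphatase Cdc25b by 0.24 (adjusted p = 0.000334), and Top2a, which untangles copied chromosomes, by 0.31 (adjusted p = 0.00122). The remaining rises, named after their values were seen, were in Mybl2 (0.46, adjusted p = 0.00175), Aurkb (0.29, adjusted p = 0.00895), Mad2l1 (0.23, adjusted p = 0.00954), Cdk1 (0.20, adjusted p = 0.00792) and Bub3 (0.12, adjusted p = 0.0286). The 2 falls, named after their values were seen, were in Cdc20 (-0.22, adjusted p = 0.00820), an activator of the anaphase-promoting complex, and Pttg1 (-0.32, adjusted p = 0.0189), the securin. Mki67, the usual proliferation marker, was at 59.6 ± 5.77 and 60.1 ± 4.64 CPM (adjusted p = 0.933), and Ccnb1, the mitotic cyclin, at 22.6 ± 1.12 and 22.5 ± 1.48 CPM (adjusted p = 0.916); both were also chosen after their values were seen. In the first untreated library the summed mitosis genes stood at 1126 CPM against 1000.2 and 998 CPM in the other untreated libraries, within the 1097 to 1129 CPM of the lenvatinib libraries, while for the replication members it stayed below them. Whether the lists differ was not tested. The E2F-type words were in 3 of 37 mitosis gene windows (8.11%, against 4.65% of tested genes with a window). TTTGAA was in 27 of the 37 (73%, against 14.6%). It is a word of mitotic promoters, so a high share is built into the choice of this list.

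**Figure D5:**
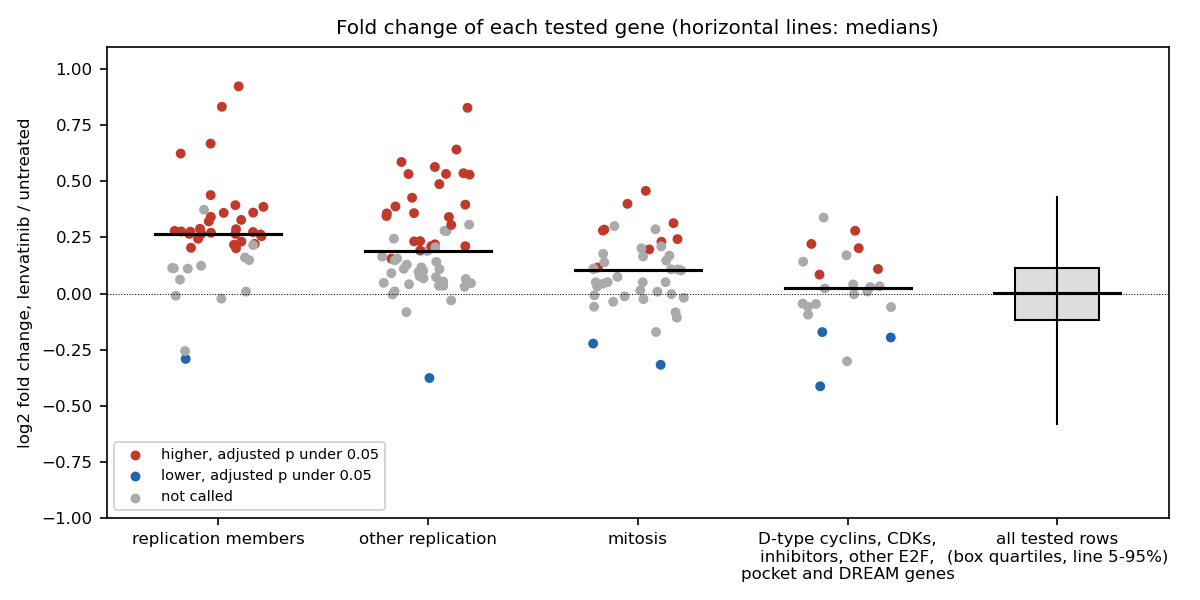
Log2 fold change of each tested gene in the replication members (44 genes), the other replication genes (57), the mitosis genes (44) and the G1 control genes, which are D-type cyclins, CDKs, inhibitors, other E2F, pocket and DREAM genes (23), with medians as lines, beside the quartiles and the 5 to 95% range of all tested rows. Medians stand at 0.27, 0.19, 0.11 and 0.02 in that order, and at 0.00 for all rows.

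A list of G1 control genes holds D-type cyclins, their kinases, CDK inhibitors, pocket proteins, further E2F and DP factors and DREAM complex subunits. Of its 23 tested genes 5 were higher, 3 lower and 15 not called, with a median of 0.02. The shares were 21.7% higher and 13% lower, against 13.3% and 14.9% of all tested rows. Cdkn1a, the inhibitor p21 that holds differentiating myoblasts out of the cycle, fell from 1933 ± 35.3 to 1688 ± 19.1 CPM (-0.20 ± 0.02, adjusted p = 8.2e-09). Ccnd1, cyclin D1, rose from 76.6 ± 5.15 to 89.3 ± 2.27 CPM (adjusted p = 3.68e-05). The repressor E2f6 rose by 0.20 (adjusted p = 0.000238), and Rbl1, the pocket protein p107, by 0.28 (adjusted p = 0.00127). The remaining rises, also named after their values were seen, were in Rb1 (0.08, adjusted p = 0.0268), the retinoblastoma gene, and Tfdp1 (0.11, adjusted p = 0.0165), the partner of E2F factors. The other falls, named after their values were seen, were in Ccnd2 (-0.17, adjusted p = 0.0104) and in Cdkn1c (-0.41, adjusted p = 0.0379). Cdkn1b, the inhibitor p27, was at 52.8 ± 3.39 and 52.8 ± 1.81 CPM (adjusted p = 0.969; chosen after its value was seen).

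Markers of cell state moved in both directions beside the replication genes. Of all tested rows 13.3% were called higher and 14.9% lower, for comparison with the counts below. Of 9 genes of differentiated muscle 5 rose, namely Myog (0.27), Myod1 (0.24), Mymk (0.17), Ckm (0.15) and Myh3 (0.10), all as log2 fold changes. Tnnt1 (-0.29), Des (-0.19) and Actn2 (-0.15) fell, and Ttn (-0.11) did not pass. Their summed level ranged from 13638 to 14490.4 CPM untreated and from 13769 to 14491 CPM with lenvatinib. Of 9 tested markers of undifferentiated and reserve myoblasts 4 rose, namely Myf5 (0.57), Id1 (0.50), Id3 (0.83) and Hey1 (0.75), and Notch3 (-0.71) and Spry1 (-0.53) fell, with sums of 336 to 351 and 309 to 319.7 CPM. Pax7, the satellite cell factor, was at 10.9 ± 0.364 and 11.6 ± 0.407 CPM (adjusted p = 0.480). Cd34 (-0.14, adjusted p = 0.0705) and Hes1 (-0.00139, adjusted p = 0.987) did not pass either. Macrophage markers summed to 6.46 to 7.03 CPM untreated and 5.61 to 5.85 CPM with lenvatinib, with Adgre1 at 0 counts in all 6 libraries and Cd14 lower (-0.54). Endothelial markers summed to 1.88 to 2.48 and 2.10 to 2.49 CPM, with none called. Adipocyte markers summed to 40.7 to 42.6 and 36.6 to 41.6 CPM, nearly all of it Cebpa, which fell by 0.70, and Lpl, which rose by 0.22; Plin1 was at 0 counts throughout. The part of these markers in the replication gene values was not tested.

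Rows that share bases with another row limit 9 members. For Ccne2, Orc6, Mcm7, Cdc45, Rfc4, Rfc5, Fen1, Lig1 and Chaf1a, the overlapping row on the opposite strand held at least 10% of the member's own level. Whether reads were counted by strand is not given in the text of the labels. Among the 35 members without such an overlap, 24 were higher, 1 lower and 10 not called, with a median log2 fold change of 0.27.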

How the data were processed

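The deposited table holds raw, whole-number read counts per gene and library, with no normalization by the authors, in 6 columns matched by name to the sample titles. Per the labels' protocols reads were aligned with Hisat2 2.0.1, and HTSeq 0.6.1 and mm10 stand in the submitters' processing notes; the strand setting used, if any, was not given in sources used here. Positions are printed as deposited and differ from mm10; promoter coordinates are GRCm38.p6 and were not combined with them. A deposited length column (unit other) gave levels per kilobase.

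The whole table was fitted with edgeR 4.0.16 (R 4.3.3; filterByExpr defaults of 10 and 15 counts, TMM factors 0.996 to 1.01, glmQLFit robust, glmQLFTest), untreated against lenvatinib, with Benjamini-Hochberg adjustment over 14989 of 56792 rows and a threshold of 0.05. The SE was derived from the F statistic. The code was tested on simulated data. Total counts of 24566768 to 32406563 make 3 counts equal to 0.0926 to 0.123 CPM, counting error only. Replicates differed by more than sampling noise (chi-square per degree of freedom 2.78 to 5.6). Alternatives were other scalings, filters, DESeq2 1.42.0, limma-voom 3.58.1, a replicate block, leaving out rows whose length exceeds their span, a threshold of 0.01 and leaving out each library.

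Members and lists were chosen with earlier results of these data known. All members are named; values per library are given for the 20 with the smallest p and the 3 most abundant, and in addition for Mcm10; of related lists the 4 genes with the smallest p are named.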

Additional observations from a re-analysis of the deposited data

How the results depend on the processing

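In 14 refits of the whole table, 22 of the 31 called members stayed on the same side of the threshold with the same direction; the 9 that did not are given with their values above. RLE or upper quartile factors, no filter, a filter of 1 CPM in 3 libraries, limma-voom and leaving out rows longer than their own span kept the same 31 calls. DESeq2 called 25 members higher and 1 lower, and leaving out one library in turn 23 to 31 higher and 1 lower. Over all rows DESeq2 called 1530 higher and 1789 lower, against 2000 and 2229 in the main fit. All-row counts for the fits without single libraries and for the lower threshold are not given here. With a threshold of 0.01 the counts were 23 and 1. The sign of Gins4, Lig1 and Rfc3, none of them called, changed when single libraries were left out, with log2 fold changes of -0.0706 to 0.0848, -0.0541 to 0.0160 and -0.0664 to 0.0374. The replicate block called the same 30 members higher and 1 lower. Same-numbered libraries had correlations of deviations of 0.02, -0.08 and 0.00, and differently numbered ones of -0.06 to 0.06. No pairing by number was seen, and 3 libraries per group are too few to exclude it. Leaving out members that overlap another row was chosen after seeing the data. Depth limits were closest for Orc1 and Gins1, with 29 to 64 and 50 to 85 counts per library.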
